A study of Homo sapiens with 12 samples.

Results

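Delta cells are the somatostatin-secreting cells of the islet, and this account follows 6 genes that mark or regulate them besides the hormone gene itself: HHEX, LEPR, FRZB, BCHE, CASR and GHSR. They were chosen by gene name. Each symbol matched 1 of the 60624 gene rows in the tables of both experiments. The libraries were bulk RNA-seq of islets made from the human embryonic stem cell line MEL1 by way of expandable pancreatic progenitors (ePPs), collected on day 8 in the medium named R6. There were 4 groups of 3 libraries: NKX2-2 knockout and its own wild type, and CLEC16A knockout and its own wild type. NKX2-2 is a homeodomain transcription factor of islet cells, and CLEC16A is an endosomal protein that takes part in mitophagy.

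All 4 groups shared the same line, progenitor culture and differentiation medium. The progenitors grew on feeder cells in the medium EF6I, DMEM with B27, EGF, bFGF, the TGF-beta receptor inhibitor 616452 and the bromodomain inhibitor I-BET151. The R6 medium was DMEM with B27, BSA, zinc sulfate, heparin, vitamin C, 616452, thyroid hormone (T3), the BMP receptor inhibitor LDN-193189, the gamma-secretase inhibitor Compound E and forskolin, which raises cyclic AMP. No label names an edited clone or tells whether the 3 libraries of a group are separate cultures. The p-values thus reflect only library-to-library spread, possibly technical, and clone and knockout effects cannot be told apart.

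Delta cells restrain insulin and glucagon release from their beta and alpha cell neighbours through somatostatin, which acts on receptors of those cells. HHEX is the homeobox factor that keeps mature delta cells in their state. The receptors LEPR (leptin), GHSR (ghrelin) and CASR (extracellular calcium) let cells read circulating and local signals, FRZB is a secreted Wnt antagonist, and BCHE is a secreted cholinesterase. None of the 6 is confined to delta cells: HHEX is also a gene of liver and endothelium, LEPR, FRZB and BCHE occur in stroma or liver, and CASR occurs in other islet cells.

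The upstream sequence is shown for 4 genes, LEPR and CASR because among the 5 genes that could be tested they had the largest rise and fall with NKX2-2 knockout, and HHEX and SST because they moved in opposite directions in the experiments. The stretches come from the RefSeq promoter table (GRCh38.p14), within 250 bases before the gene start, and leave out bases that an annotated exon covers. Capitals mark matches, on either strand, of the NKX2-2 core CACTTNA, the homeodomain core TAATTA, the FOXA motif TGTTTAC, the TATA box TATAAA or the GC box GGGCGG.
LEPR (chr1:65420402-65420586, plus strand): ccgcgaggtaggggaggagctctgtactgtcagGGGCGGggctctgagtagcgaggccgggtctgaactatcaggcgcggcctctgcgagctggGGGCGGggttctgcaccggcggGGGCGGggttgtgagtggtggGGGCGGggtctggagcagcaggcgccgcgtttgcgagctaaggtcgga
HHEX (chr10:92689705-92689950, plus strand): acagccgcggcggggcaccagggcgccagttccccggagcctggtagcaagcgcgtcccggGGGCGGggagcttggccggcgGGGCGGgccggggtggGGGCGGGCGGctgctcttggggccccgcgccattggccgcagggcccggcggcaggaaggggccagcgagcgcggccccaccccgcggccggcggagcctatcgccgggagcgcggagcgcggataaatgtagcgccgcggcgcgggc
CASR (chr3:122183418-122183667, plus strand): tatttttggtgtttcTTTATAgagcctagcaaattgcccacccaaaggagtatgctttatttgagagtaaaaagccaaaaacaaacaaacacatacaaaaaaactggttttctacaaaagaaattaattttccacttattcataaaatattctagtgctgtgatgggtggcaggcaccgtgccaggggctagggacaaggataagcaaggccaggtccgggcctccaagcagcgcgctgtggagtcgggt
SST (chr3:187670400-187670644, minus strand): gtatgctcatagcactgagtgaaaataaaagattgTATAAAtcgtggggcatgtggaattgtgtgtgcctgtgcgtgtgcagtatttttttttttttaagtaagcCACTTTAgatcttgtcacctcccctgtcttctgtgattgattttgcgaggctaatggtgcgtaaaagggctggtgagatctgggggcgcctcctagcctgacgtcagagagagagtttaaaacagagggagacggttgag

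The sequences fell into a GC-rich and an AT-rich kind. Over the full 250 bases, GC made up 81.2% of the HHEX window and 73.6% of the LEPR window, above the median of 58.0% over 27305 promoters. CASR had 43.2%, SST 45.6% and BCHE 33.2%, all below that median, while FRZB (55.6%) and GHSR (61.6%) lay near it. GC boxes, a motif added after the sequences were seen, occurred 6 times in the LEPR window (4 of them in the printed stretch), 4 times in HHEX and 2 times in FRZB, where 42.3% of all promoters held at least 1. The FRZB window (chr2:182866638-182866887) lies inside the FRZB gene as GENCODE v29 places it (chr2:182833275-182867162, minus strand). A TATA box match stood in BCHE, CASR and SST (11.1% of all promoters). The NKX2-2 core was found in SST and in none of the 6 (8.84% of all promoters), and neither TAATTA (4.49%) nor TGTTTAC (2.98%) was found in any of the 7 windows. The E box CANNTG, held by 62.2% of all promoters, was found in SST and, among the 6, in BCHE alone. A match is only a match of letters in this window.

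Total counts per library were 16157481 to 20649976 in the NKX2-2 experiment and 31364272 to 33763795 in the CLEC16A experiment. Islet hormones were present: INS (insulin) had group means of 183 to 647 CPM and GCG (glucagon) of at least 61 CPM. Liver markers were higher in the same libraries. AFP (alpha-fetoprotein) alone had group means of 1721 to 6978 CPM, and the liver markers summed to 8209 to 20800 CPM per library. The transcript of the targeted gene did not check the labels: NKX2-2 had a log2 fold change of -0.32 in its own experiment (edgeR adjusted p = 0.06096) and CLEC16A of 0.18 in its own (edgeR adjusted p = 0.0949). Groups are therefore the libraries labelled knockout and wild type. Gene positions below are those of GENCODE v29 on GRCh38. Both NKX2-2 libraries numbered 3 stood apart from the others of their groups, and results without both are given below. Levels are given as CPM, counts per library size, group values are mean ± SD, and a gene is called where edgeR's quasi-likelihood test gave a Benjamini-Hochberg adjusted p under 0.05 over all genes tested.

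The first comparison asked how these genes differed in cells labelled NKX2-2 knockout. HHEX, LEPR, FRZB and BCHE rose, LEPR by 7.74-fold and FRZB by 5.17-fold, and CASR fell by 24.2-fold. GHSR, too low to be tested by this rule, was seen only in knockout libraries of this experiment. Of the 6 genes, 5 passed the filter on low counts, and 4 were called higher and 1 lower, where 33.4% of all 17436 tested genes were called, 16.6% as higher and 16.8% as lower. Groups did not overlap in any of the 5, as in 45.5% of all tested genes. The median log2 fold change of the 5 was 0.87, beside 0.03 over all tested genes. SST itself rose 4.64-fold. In bulk RNA, fewer or more cells of a type and less or more RNA per cell cannot be told apart.

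**Figure D1:**
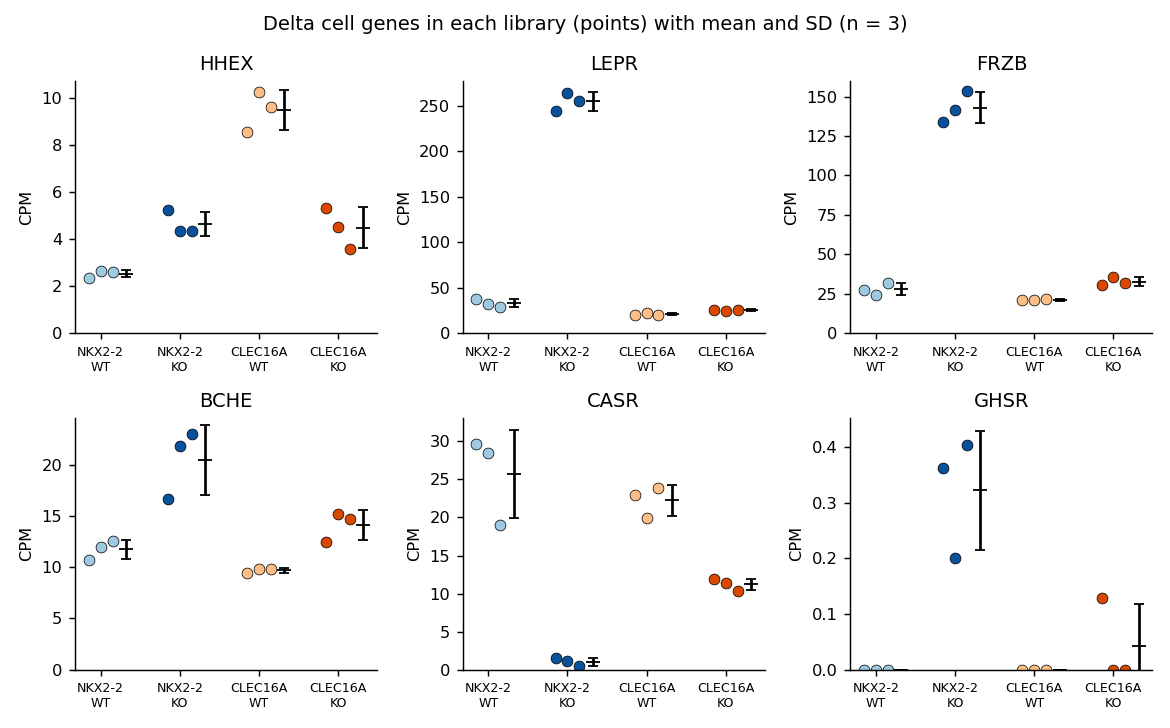
Level of each of the 6 genes (CPM, linear axes from 0, a scale of its own per gene) in each library (points) of the 4 groups, with mean and SD (n = 3). LEPR and FRZB stand far above all other groups in NKX2-2 knockout libraries, CASR is near 0 there, and HHEX is higher than its wild type in NKX2-2 knockout but lower than its wild type in CLEC16A knockout.

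HHEX (ENSG00000152804, chr10:92689951-92695646, plus strand), the delta cell transcription factor, was at 5.24, 4.35 and 4.33 CPM in NKX2-2 knockout and at 2.355, 2.63 and 2.60 CPM in wild type libraries. Every knockout library lay above every wild type library, at a low level throughout: the groups held 249 and 147 counts in all. The rise was 1.83-fold, from 2.53 ± 0.15 to 4.64 ± 0.52 CPM (n = 3 each), with a log2 fold change of 0.87 (SE 0.20, edgeR adjusted p = 0.004471), and 0.94 without both libraries numbered 3.

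LEPR (ENSG00000116678, chr1:65420652-65641559, plus strand), the leptin receptor, was at 244.0, 264 and 256 CPM in knockout and at 37.2, 32.4 and 29.1 CPM in wild type libraries. The lowest knockout library was far above the highest wild type one. Its log2 fold change was 2.95 (SE 0.12, edgeR adjusted p = 4.022e-09), and 2.87 without both libraries numbered 3. LEPR shares 165 of its 11370 exonic bases with LEPROT, a gene on the same strand, and reads in them could belong to either. LEPROT itself rose 1.22-fold, from 103 ± 4.70 CPM in wild type to 127 ± 7.98 CPM in knockout (n = 3 each).

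GHSR (ENSG00000121853, chr3:172445133-172448456, minus strand), the ghrelin receptor, had 6, 4 and 7 counts in knockout and 0 in all 3 wild type libraries. The knockout mean was 0.322 CPM (95% counting interval 0.184 to 0.505), and the wild type interval reached 0.0633 CPM. Set against a floor of 3 counts per wild type library (0.155 CPM), the knockout mean was 2.075 times the floor. That ratio takes no account of counting error in the knockout, whose lower interval limit of 0.184 CPM was nearer to the floor. Without a filter on low counts it passed edgeR (adjusted p = 0.00371) and limma on log2(TPM + 1) (adjusted p = 0.0283), while DESeq2 gave no adjusted p. Adjusted p of edgeR without the filter cannot be set beside those with it. They were 8.2e-111 against 4.02e-09 for LEPR and 0.00592 against 0.00447 for HHEX. Intervals and floors cover counting error only.

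CASR (ENSG00000036828, chr3:122183683-122291629, plus strand), the calcium-sensing receptor, was at 1.505, 1.20 and 0.462 CPM in knockout and at 29.7, 28.4 and 19.0 CPM in wild type libraries. The libraries numbered 3 were the lowest of both groups, and the groups were still more than 10-fold apart at their nearest values. The log2 fold change was -4.60 (SE 0.28, edgeR adjusted p = 1.085e-07) on 57 knockout counts against 1517 wild type counts, and -4.43 without both libraries numbered 3. On log2(TPM + 1), a scale that understates the change of low genes, limma gave -1.65.

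FRZB (ENSG00000162998, chr2:182833275-182867162, minus strand), the secreted Wnt antagonist, was at 134, 142 and 153 CPM in knockout and at 27.2, 24.1 and 31.7 CPM in wild type libraries. All knockout libraries were above all wild type libraries. The log2 fold change was 2.37 (SE 0.12, edgeR adjusted p = 2.675e-08), and 2.42 without both libraries numbered 3. BCHE (ENSG00000114200, chr3:165772904-165837472, minus strand), the cholinesterase, was at 16.6, 21.8 and 23.0 CPM in knockout and at 10.7, 12.0 and 12.5 CPM in wild type libraries. Its groups were apart by a smaller margin, with knockout replicate 1 nearest to the wild type. The rise was 1.75-fold (log2 fold change 0.81, SE 0.15, edgeR adjusted p = 0.0008821), and the log2 fold change 0.77 without both libraries numbered 3.

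Markers of other cell types moved in the same libraries, where 16.6% of all tested genes rose and 16.8% fell. Of 13 tested mesenchyme markers 12 rose and 0 fell, and their summed level was 7247 to 8313 CPM in knockout and 2837 to 3131 CPM in wild type libraries. COL3A1, a fibrillar collagen, rose 2.69-fold and PDGFRA, a stromal growth factor receptor, 9.89-fold. Of 9 tested neuron markers 4 rose and 2 fell (915 to 1049 CPM against 677 to 750 CPM). Of 7 tested intestine markers 1 rose and 5 fell, with sums of 1139 to 1211 CPM in knockout and 1584 to 1714 CPM in wild type. The sums of the liver markers, 13560 to 16410 CPM in knockout and 13140 to 15560 CPM in wild type, overlapped (6 rose and 3 fell of 16), as did those of the endothelium markers, 111 to 119 CPM and 99.7 to 125 CPM (6 rose and 2 fell of 10). The part of these cells in the rises of LEPR, FRZB, BCHE and HHEX was not tested.

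The libraries labelled CLEC16A knockout were compared next with their own wild type. Here HHEX fell 2.11-fold and CASR 1.98-fold, while FRZB rose 1.54-fold, BCHE 1.46-fold and LEPR 1.22-fold. Of the 5 tested genes 3 were called higher and 2 lower, where 45.0% of all 19958 tested genes were called, 23.7% as higher and 21.3% as lower. Groups did not overlap in any of the 5, as in 53.8% of all tested genes. The median log2 fold change of the 5 was 0.29, beside -0.01 over all tested genes. SST fell 1.65-fold, from 94.9 ± 7.63 to 57.4 ± 3.24 CPM (n = 3 each).

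HHEX was at 5.33, 4.53 and 3.60 CPM in CLEC16A knockout and at 8.57, 10.3 and 9.63 CPM in wild type libraries. The highest knockout library stayed below the lowest wild type library. The log2 fold change was -1.08 (SE 0.17, edgeR adjusted p = 1.149e-05). LEPR was at 25.5, 24.4 and 25.8 CPM in knockout and at 20.1, 21.6 and 20.3 CPM in wild type libraries. These values were close but did not overlap, and the log2 fold change was 0.29 (SE 0.09, edgeR adjusted p = 0.01267). That call was lost without wild type replicate 1 (adjusted p = 0.061) or wild type replicate 3 (adjusted p = 0.0568), with upper-quartile scaling (adjusted p = 0.0585) and in the limma fits of TPM (0.177 to 0.228), and it passed in 10 of 16 alternatives in all.

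GHSR had 4, 0 and 0 counts in CLEC16A knockout and 0 in each wild type library. All 4 counts came from knockout replicate 1, so no fold is given. The counting interval of the knockout group was 0.0116 to 0.109 CPM and that of the wild type group reached 0.0365 CPM. Without a filter, neither edgeR (adjusted p = 0.308) nor limma (adjusted p = 0.52) called it. CASR was at 11.9, 11.4 and 10.4 CPM in knockout and at 22.9, 19.9 and 23.8 CPM in wild type libraries. No library of one group reached the other, and the log2 fold change was -0.99 (SE 0.11, edgeR adjusted p = 1.745e-07).

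FRZB was at 30.2, 35.7 and 31.9 CPM in knockout and at 21.0, 20.7 and 21.8 CPM in wild type libraries. The knockout libraries were all higher, with a log2 fold change of 0.62 (SE 0.09, edgeR adjusted p = 5.866e-06). BCHE was at 12.4, 15.2 and 14.7 CPM in knockout and at 9.41, 9.84 and 9.81 CPM in wild type libraries. They were again all higher, with a log2 fold change of 0.54 (SE 0.13, edgeR adjusted p = 0.001213). The BCHE call was lost in the 3 limma fits of TPM (adjusted p = 0.078 to 0.125), and passed in 13 of 16 alternatives.

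Markers of other cell types moved here too, where 23.7% of all tested genes rose and 21.3% fell. Of 16 tested liver markers 14 rose and 0 fell (19170 to 20800 CPM in knockout, 8209 to 8566 CPM in wild type), and all 9 tested intestine markers rose (4190 to 5186 CPM against 819 to 851 CPM). Of 12 tested mesenchyme markers 0 rose and 9 fell, with sums of 73.8 to 79.4 CPM in knockout and 209 to 222 CPM in wild type. Of 10 tested neuron markers 0 rose and 9 fell (309 to 348 CPM against 664 to 723 CPM). Of 8 tested endothelium markers 2 rose and 3 fell, and their sums overlapped (141 to 154 CPM and 149 to 169 CPM). The part of any of these cells in the rises of LEPR, FRZB and BCHE, and in the falls of HHEX and CASR, was not tested.

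**Figure D2:**
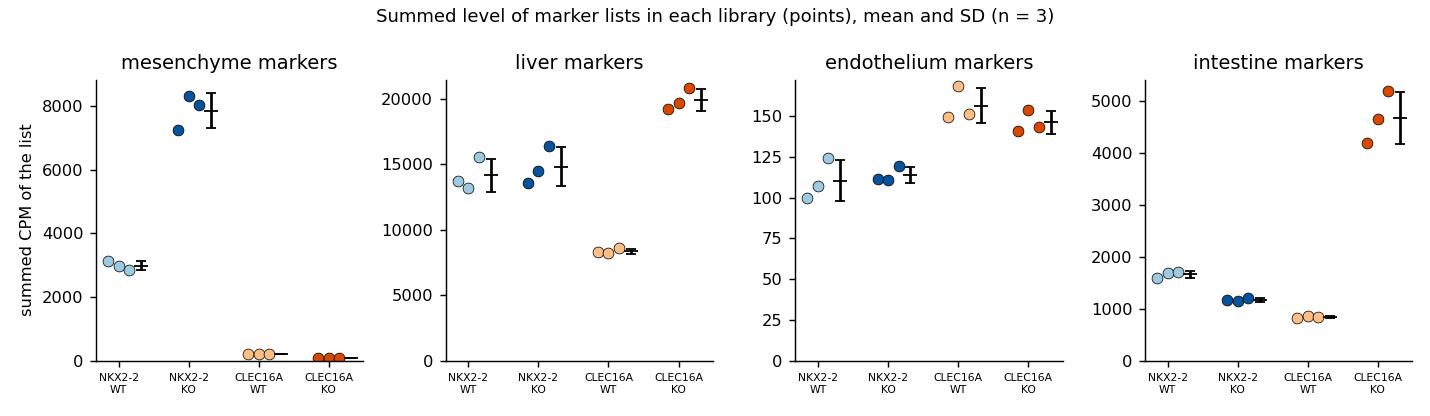
Summed CPM of the mesenchyme, liver, endothelium and intestine marker lists in each library (points) of the 4 groups, with mean and SD (n = 3, linear axes from 0). Mesenchyme sums are highest in NKX2-2 knockout (7247 to 8313 CPM), and liver and intestine sums are highest in CLEC16A knockout (19170 to 20800 and 4190 to 5186 CPM).

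Whether the knockout effects differed was tested by the interaction term of an edgeR fit to all 12 libraries, in which 38.2% of 20494 genes were called, 17.8% as higher and 20.4% as lower. Of the 5 tested genes, HHEX, LEPR and FRZB had a higher and CASR a lower effect with NKX2-2 knockout. HHEX moved in opposite directions, and the NKX2-2 effect minus the CLEC16A effect was 1.962 on the log2 scale (SE 0.26, edgeR adjusted p = 2.588e-06). LEPR and FRZB rose in both experiments and differed in size, by 2.67 (SE 0.13, edgeR adjusted p = 4.877e-13) and 1.75 (SE 0.15, edgeR adjusted p = 2.968e-09). CASR fell in both and differed by -3.60 (SE 0.30, edgeR adjusted p = 2.936e-09). For BCHE the difference was 0.27 (SE 0.19, edgeR adjusted p = 0.2803) with a 95% interval from -0.12 to 0.67, so it was not called, and these libraries leave room for a difference anywhere in that interval. SST differed by 2.95 (SE 0.18, edgeR adjusted p = 1.384e-11). Opposite signs like those of HHEX and SST were common: of 3499 genes called in both experiments, 57.7% had opposite signs. The wild types differed as well. HHEX was at 2.53 ± 0.15 CPM in the NKX2-2 wild type and at 9.49 ± 0.85 CPM in the CLEC16A wild type. SST was at 24.1 ± 5.86 and 94.9 ± 7.63 CPM (n = 3 each). Each knockout had an experiment of its own, so differences between knockouts and between experiments cannot be told apart.

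**Figure D3:**
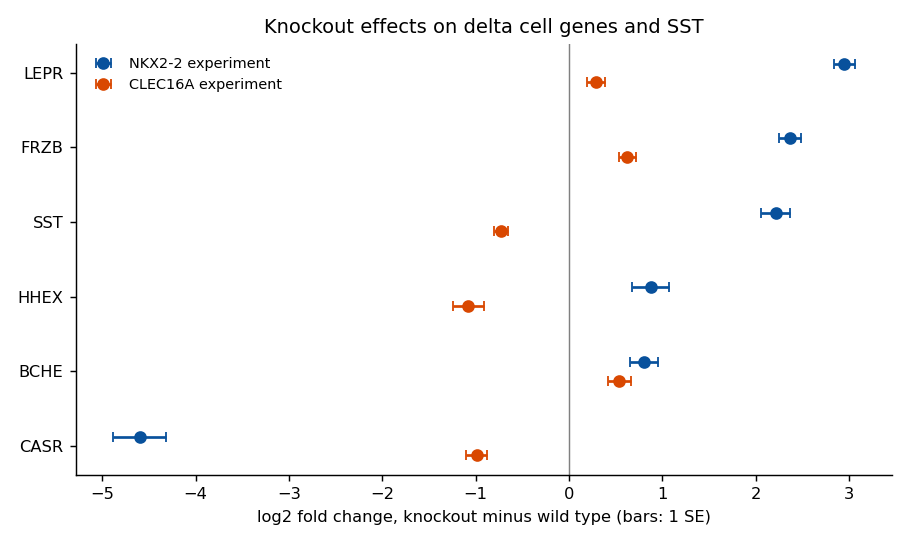
Log2 fold change of knockout against wild type in the NKX2-2 (blue) and CLEC16A (orange) experiments for the 5 tested genes and SST, with bars of 1 SE on each side. HHEX and SST lie on opposite sides of 0, LEPR, FRZB and BCHE lie above 0 and CASR lies below 0 in both experiments.

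Set against SST within each library, the genes did not keep a fixed proportion to the hormone. SST TPM did not overlap between groups in either experiment, so each ratio also carries the change of SST. The share of all genes apart on this scale was not computed. FRZB came nearest in the NKX2-2 experiment, with a TPM (a transcript level per length) of 25.5, 30.5 and 30.8% of that of SST in knockout and 30.1, 24.6 and 23.3% in wild type libraries, values that overlapped. LEPR was at 23.3, 29.1 and 26.2% in knockout and 21.6, 17.3 and 10.9% in wild type libraries, without overlap. HHEX and BCHE rose by less than SST: HHEX stood at 1.49 ± 0.06% of SST in knockout and 3.95 ± 0.85% in wild type, and BCHE at 4.74 ± 0.99% and 13.2 ± 1.79% (n = 3 each). CASR dropped from 9.00 ± 4.21% to 0.0645 ± 0.0401% of SST.

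In the CLEC16A experiment the order was different. HHEX, at 3.59, 3.02 and 2.203% of SST TPM in knockout and 3.48, 3.73 and 3.88% in wild type, overlapped between groups, and so did CASR (1.46 ± 0.23% and 2.19 ± 0.47%). FRZB was at 12.9 ± 1.09% of SST in knockout and 5.05 ± 0.51% in wild type, LEPR at 5.68 ± 0.65% and 2.68 ± 0.25%, and BCHE at 6.86 ± 0.53% and 3.03 ± 0.24% (n = 3 each). These 3 genes did not overlap between groups on this scale. SST TPM itself was 164 to 183 in knockout and 300 to 342 in wild type, so these ratios hold the fall of SST as well. By counts, the log2 fold changes there were -1.079 for HHEX (95% interval -1.424 to -0.7337) and -0.9872 for CASR (-1.222 to -0.7528). SST had -0.7266 (-0.8803 to -0.5729), so both estimates were larger falls than that of SST. A difference from SST was not tested. FRZB, BCHE and LEPR went the other way.

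**Figure D4:**
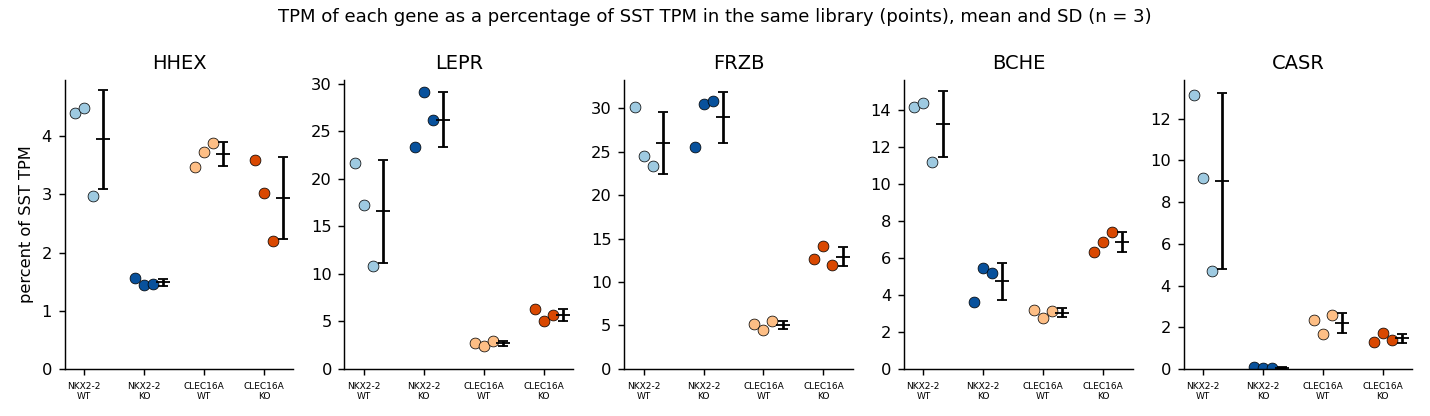
TPM of HHEX, LEPR, FRZB, BCHE and CASR as a percentage of SST TPM in the same library (points), with mean and SD (n = 3, linear axes from 0, a scale of its own per gene). FRZB overlaps between NKX2-2 knockout and wild type, HHEX and CASR overlap between CLEC16A knockout and wild type, and the other pairs of groups are apart. SST TPM itself is apart between the groups of each experiment, and each ratio carries that change.

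By TPM, SST was the most abundant of the 7 genes in all 4 groups, and FRZB came next in each. In NKX2-2 wild type the order was FRZB (7.53 TPM), LEPR (4.65), BCHE (3.81), CASR (2.48), HHEX (1.12) and GHSR (0), and the neighbours LEPR and BCHE overlapped. In NKX2-2 knockout it was FRZB (39.6 TPM), LEPR (35.9), BCHE (6.44), HHEX (2.05), GHSR (0.112) and CASR (0.0913), the last pair overlapping. LEPR thereby went from percentile 48.4 to percentile 89.5 of TPM among tested genes, FRZB from 59.1 to 90.5, and CASR from 36.1 to 1.0. In CLEC16A wild type the order was FRZB (15.9 TPM), HHEX (11.7), BCHE (9.55), LEPR (8.45), CASR (6.86) and GHSR (0), with no overlap of neighbours. In CLEC16A knockout HHEX (5.06 TPM) stood after FRZB (22.4), BCHE (11.9) and LEPR (9.85), of which the last pair overlapped, and before CASR (2.54) and GHSR (0.0627). TPM values are not comparable between the experiments, because the deposited rows hold 41.4 to 47.2% of a complete TPM scale for NKX2-2 libraries but 99.7 to 99.8% for CLEC16A libraries.

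Other genes linked to delta cells split in both experiments. Of 16 tested such genes, SST among them, 6 rose and 5 fell with NKX2-2 knockout (median log2 fold change 0.28), and 3 rose and 10 fell with CLEC16A knockout (median -0.49). For these and all list counts below, 16.6% of all tested genes rose and 16.8% fell with NKX2-2 knockout. With CLEC16A knockout 23.7% rose and 21.3% fell. RBP4, a retinol carrier that also belongs to the liver markers, rose in both, with log2 fold changes of 2.23 and 0.97. ERBB4, a neuregulin receptor, moved like SST, with 1.93 (edgeR adjusted p = 3.844e-05) and -1.03 (edgeR adjusted p = 0.001314), as did the potassium channel gene KCNJ2 (1.35 and -0.48) and the islet factor ISL1 (0.32 and -0.89). PAX6 (-1.32 and -1.09) and PDX1 (-1.20 and -0.50), factors of several islet cell types, fell in both. EDN3, an endothelin, went the other way round (-1.31 and 0.57). UCN3, a urocortin that does not mark delta cells alone, was named here after its values were seen. It rose with CLEC16A knockout (1.60) and was not called with NKX2-2 knockout (0.41).

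HHEX works with corepressors of the TLE family, and acts in the foregut beside factors of liver and pancreas. Of 20 tested genes of this kind, 2 rose and 13 fell with NKX2-2 knockout (median log2 fold change -0.75). The corepressor genes were split: TLE4 rose (1.85), TLE3 (-1.51) and TLE2 (-0.73) fell, and TLE1 (-0.19) was not called. MNX1 (-2.49) and NKX6-1 (-1.89), both pancreatic factors, fell. With CLEC16A knockout 6 rose and 8 fell (median -0.12). There HNF4A, a liver and gut factor, rose (1.13), opposite to its change with NKX2-2 knockout (-1.19), and ONECUT1, a factor of liver and pancreas, did the same (0.42 and -1.10).

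Genes of leptin signalling other than LEPR were counted next. Leptin binding to LEPR signals through JAK kinases to STAT3, and SOCS3 is an inhibitor induced by that signal. Of 13 tested genes of the pathway, 2 rose and 5 fell with NKX2-2 knockout (median log2 fold change -0.26), where 16.6% of all tested genes rose and 16.8% fell. Among those that fell were IRS2 (-1.46), STAT3 (-0.91) and SOCS3 (-1.09), and the 2 that rose were LEPROT and LEPROTL1, which act on receptor traffic. With CLEC16A knockout 7 rose and 2 fell (median 0.23), and STAT3 (0.97, edgeR adjusted p = 9.788e-12) and SOCS3 (0.99, edgeR adjusted p = 5.356e-08) rose. LEP, the gene of leptin itself, had 0 counts in all libraries of the NKX2-2 experiment and was too low to be tested in the other.

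Ghrelin, the ligand of GHSR, was measured more readily than its receptor. GHRL was at 12.5 ± 1.32 CPM in NKX2-2 knockout and 15.4 ± 2.41 CPM in wild type (n = 3 each), a log2 fold change of -0.29 that was not called (edgeR adjusted p = 0.1488). With CLEC16A knockout it fell 2.49-fold (edgeR adjusted p = 3.223e-08). Of the 9 tested genes of ghrelin processing and signalling, 1 rose and 3 fell with NKX2-2 knockout, PCSK1, a prohormone convertase, by a log2 fold change of -4.05. Of the 8 tested with CLEC16A knockout 4 rose and 2 fell, and LEAP2, a peptide antagonist of GHSR, rose (1.82) after a fall with NKX2-2 knockout (-0.60).

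CASR couples to Gq/11 and Gi proteins, and through phospholipase C to inositol trisphosphate receptors. Of 17 tested genes of this route, 1 rose and 6 fell with NKX2-2 knockout (median log2 fold change -0.23), and 7 rose and 5 fell with CLEC16A knockout (median 0.05). ITPR3, an inositol trisphosphate receptor, fell with NKX2-2 knockout (-3.02) and rose with CLEC16A knockout (1.23), and so did the G protein gene GNA11 (-0.72 and 0.83). The 1 gene that rose with NKX2-2 knockout was PLCB2, a phospholipase C (2.23). GNAI2 fell in both (-0.68 and -0.50).

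FRZB belongs with other secreted Wnt antagonists. Of 8 tested, 4 rose and 2 fell with NKX2-2 knockout (median log2 fold change 0.57): SFRP1 (0.99), IGFBP4 (0.72), DKK1 (1.66) and DKK2 (1.02) rose, and SFRP5 (-0.83) and DKK3 (-0.40) fell. With CLEC16A knockout 2 rose and 4 fell (median -0.15), DKK3 by -0.96 and NOTUM by -1.51, with IGFBP4 higher (0.50). SFRP2 had 0 counts in all NKX2-2 libraries. The Wnt receptors that FRZB can compete with were split, 5 higher and 4 lower of 11 with NKX2-2 knockout and 4 higher and 5 lower of 12 with CLEC16A knockout. FZD1 fell in both (-1.21 and -0.88), and FZD2 rose with NKX2-2 knockout (1.15) and fell with CLEC16A knockout (-1.07).

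BCHE hydrolyses choline esters, and ACHE is the other cholinesterase. ACHE fell with NKX2-2 knockout (-1.35, edgeR adjusted p = 1.121e-05) and rose with CLEC16A knockout (1.60, edgeR adjusted p = 3.801e-10), whereas BCHE rose in both. Of 15 tested acetylcholine genes 6 rose and 7 fell with NKX2-2 knockout, with SLC18A3, the vesicular acetylcholine transporter, at 3.24 and the nicotinic receptor genes CHRNA3 and CHRNA5 at -2.44 and -2.67 (log2 fold changes). Of 16 tested with CLEC16A knockout 3 rose and 9 fell. The receptors on which somatostatin acts were lower in both experiments where they were called: 0 rose and 3 fell of 4 tested in each. Of all tested genes, 16.8% fell with NKX2-2 knockout and 21.3% with CLEC16A knockout. SSTR2 fell by 0.996 and 1.20 on the log2 scale, SSTR3 by 1.11 and 0.97, SSTR1 by 2.63 with NKX2-2 knockout and SSTR5 by 1.65 with CLEC16A knockout.

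Likeness between genes was described by Pearson's r over the 12 libraries, on log2 CPM centred within each experiment. Libraries of a group share their genotype, so r is not free of the differences between groups. LEPR and FRZB were the most alike of the members (r = 0.974), and CASR ran against FRZB (r = -0.984) and LEPR (r = -0.965). HHEX was nearer to SST (r = 0.788) than to LEPR (0.506), FRZB (0.369) or BCHE (0.009). LEPR (r = 0.888) and FRZB (0.834) were nearer to SST than HHEX was, although both rose with CLEC16A knockout while SST fell. BCHE (0.578) was less near to SST, and CASR ran against it (-0.846). Among some 11656 genes, those most like each member were SRM, ZNF219 and P3H4 for HHEX (r = 0.988 to 0.978), FAM107B, CAPN2 and UGT2B17 for LEPR (0.992 to 0.988), and FAM107B, CMTM7 and RBP4 for FRZB (0.982 to 0.98). For BCHE they were LYPD8, OAT and MOSPD1 (0.977 to 0.97), and for CASR RASGRP1, EPB41L1 and SYT7 (0.997 to 0.995). FAM107B, next to both LEPR and FRZB, rose with NKX2-2 knockout (1.17) and was not called with CLEC16A knockout (0.15). RASGRP1, a Ras activator, fell in both experiments as CASR did (-3.83 and -0.66). FAM107B and RASGRP1 were picked by r over these same libraries, so likeness in their changes follows from that choice.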

How the data were processed

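Transcripts were measured by bulk RNA-seq in 12 libraries, 3 in each of 4 groups taken from the sample titles. The authors deposited, for each experiment, raw counts per Ensembl gene and TPM values. The build was hg38 and the tools were HISAT2 2.2.1, StringTie 2.1.7 and fastp 0.22.0, per the submitters' processing notes. Which program counted reads, with which annotation and strand setting, is not given in the sources used here. Pseudoautosomal Y rows (45) were not used. Gene positions are from GENCODE v29 (GRCh38), and all 7 promoters looked for (the 6 genes and SST) matched the RefSeq table.

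Counts were tested within each experiment with edgeR 4.0.16 in R 4.3.3 (robust quasi-likelihood test, TMM scaling, filterByExpr, Benjamini-Hochberg threshold 0.05), and the difference of effects in one fit of 12 libraries. The SE was taken from the fold change and its F statistic, and intervals from the t quantile that F and p imply. CPM values are on TMM-scaled library sizes. Counts per TPM of the 5 tested genes and SST differed between experiments by 0.950 to 1.15 times that of the median gene (13405 genes), which shows no shortfall in one experiment relative to the other and cannot show one common to both. No 2 replicates agreed within sampling noise.

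Same-numbered NKX2-2 libraries deviated together from their group means (r = 0.301, 0.14 and 0.631), and those of CLEC16A did not (-0.022, -0.008 and -0.057). In the NKX2-2 experiment, knockout 1 with wild type 2 (0.375) and knockout 2 with wild type 1 (0.285) went together as much, so the data set apart the libraries numbered 3 but do not separate numbers 1 and 2. The labels do not say what a number marks. The alternatives tried were upper-quartile and RLE scaling, DESeq2 1.42.0, other filters (none, or a mean of at least 1 CPM), the replicate block, one fit of 12 libraries, limma 3.58.1 on log2(TPM + 1) and log2(TPM + 0.1) with a mean of at least 0.5 TPM, log2(TPM + 1) with no filter, and leaving out each library. Leaving out both NKX2-2 libraries numbered 3 was added after seeing the data. The fits were also run on simulated counts drawn independently for each library. Such counts lack the joint deviation of the NKX2-2 libraries numbered 3, so they do not check the fits against it.

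The genes, lists and tests were chosen with earlier results of these data known. Named genes are the 6 genes, SST, GHRL, LEP, LEPROT, the targeted genes, the 3 genes of each list with the smallest p per experiment, listed genes called in both experiments with opposite sign, and the 3 genes most like each member (mean of at least 5 CPM in each experiment). INS and GCG, LEPROTL1, UCN3, further TLE genes and single further members of short counts were named after their values were seen. Some genes that this rule names are not reported here. Lists are described by counts and medians, with no test.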

Additional observations from a re-analysis of the deposited data

Results flagged for a closer look

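The knockout effect differed between the experiments, by the interaction test of edgeR over 12 libraries, for SST and for 4 of the 5 tested genes. The NKX2-2 effect minus the CLEC16A effect, on the log2 scale, was 1.962 for HHEX, 2.671 for LEPR, 1.754 for FRZB, -3.604 for CASR and 2.949 for SST. HHEX and SST were flagged with opposite directions in the experiments, while LEPR and FRZB rose and CASR fell in both by unequal amounts. In that fit 38.2% of all tested genes were called, so a difference of this kind was common in these libraries. Differences between the knockouts and between the experiments, whose wild types also differed, cannot be told apart here.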

How the results depend on the processing

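No result on the 6 genes changed direction under the alternatives run. With NKX2-2 knockout, HHEX, LEPR, FRZB, BCHE and CASR were called in all 17 alternatives, with log2 fold changes of 0.52 to 0.94, 2.71 to 3.03, 2.26 to 2.47, 0.62 to 0.92 and -4.92 to -1.65, the last from limma on log2(TPM + 1). With CLEC16A knockout, HHEX, FRZB and CASR were called in all 16. LEPR was lost with upper-quartile scaling (0.2164), limma on log2(TPM + 1) with and without the filter (0.1949 in both) and on log2(TPM + 0.1) (0.2136), and without wild type replicate 1 or 3, with 0.2654 to 0.3195 over the libraries left out. The BCHE call did not hold in the 3 limma fits either (0.2884 on log2(TPM + 1), filtered or not, and 0.312 on log2(TPM + 0.1)). Hence 1 member, not 3, was called higher in each of these limma fits; the cause was not tested. The NKX2-2 genes called numbered 3547 instead of 5824 with limma on log2(TPM + 1) without a filter. The CLEC16A genes called higher numbered 3079, 3017 and 2813 instead of 4732 in the limma fits (+ 1, + 0.1, + 1 without a filter). Upper-quartile scaling moved the median difference of effects over all genes by 0.12, and HHEX, LEPR, FRZB and CASR kept their calls. Of 990 list counts under alternatives 88 moved by over 1.5 times, 71 of them by 1 or 2 genes.

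With the replicate block, 8037 genes were called in the NKX2-2 experiment and 8763 in the CLEC16A experiment, and the block changed no call on the 6 genes (LEPR 2.956 and 0.2905, CASR -4.616 and -0.9847). Depth limits GHSR most, at 17 counts or fewer in every group, and then CASR in NKX2-2 knockout, with 57 counts.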
